A study of Mus musculus with 13 samples.

Results

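The cytosolic ribosomal protein genes encode the protein subunits of the ribosome that works in the cytoplasm. They were taken by symbol, as genes whose name starts with Rpl or Rps and a digit, together with Rplp0, Rplp1, Rplp2 and Rpsa. S6 kinase genes, Rpl39l and pseudogene symbols were left out. Only probe sets annotated to a single gene were used, and each gene was represented by its brightest probe set, judged by the mean of all arrays. This gave 49 genes of the 18194 measured. Of the 49, 22 encode proteins of the large subunit, 21 encode proteins of the small subunit and 5 are paralogs of ribosomal protein genes (Rpl3l, Rpl7l1, Rpl22l1, Rps4l and Rps27l). The last, Rps19bp1, encodes a protein named for binding Rps19 and matched the rule by name only. The members thus hold 22 of 46 listed large subunit genes and 21 of 32 listed small subunit genes. Sequences of ribosomal protein genes recur in processed pseudogenes, and 110 further probe sets carried a ribosomal protein symbol beside other symbols. Those are described below as probe sets, not as genes.

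RNA was measured on 13 oligonucleotide arrays of CD8+ T cells from P14 mice on the C57Bl/6 background, which carry a transgenic T cell receptor in all groups. There were 4 arrays of Batf-/- cells and 4 of wild-type cells after 3 days in culture with antibodies to CD3 and CD28 fixed to the plate and 100 U/ml IL-2, and 3 arrays of naive Batf-/- and 2 of naive wild-type cells. Batf belongs to the AP-1 transcription factors and is used by T cells as they become effector cells. Cells were enriched for CD8 by magnetic removal of other cells, and nothing in the labels says if replicate arrays are separate animals or cultures.

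Ribosomes hold most of these proteins in a single copy, and growing cells make them together with the ribosomal RNA and the factors that assemble it. Many mammalian ribosomal protein mRNAs start with a run of pyrimidines, the 5′ terminal oligopyrimidine (TOP) motif, through which the mTOR pathway and Larp1 control their translation. Their amount of protein can therefore change with little change of mRNA. A T cell that leaves the resting state enlarges and raises its protein synthesis.

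The starts of 8 genes whose levels are described below are shown to make the TOP motif visible. The windows are from the RefSeq promoter table (GRCm38.p6), each with 45 bases before the annotated start and 15 from the start on, read 5′ to 3′ on the strand of the gene. Capitals mark a C followed by at least 4 pyrimidines that begins within 5 bases of the annotated start, and the letters CCGGAA on either strand, the core that ETS family factors recognise. The windows are chr12:28635939-28635998 (minus strand) for Rps7, chr14:24490633-24490692 (plus) for Rps24, chr4:86857353-86857412 (minus) for Rps6, chr2:32961667-32961726 (plus) for Rpl12, chr3:28805463-28805522 (plus) for Rpl22l1, chr9:66946041-66946100 (plus) for Rps27l, chr17:24720018-24720077 (plus) for Rps2 and chr9:120127721-120127780 (plus) for Rpsa.
Rps7: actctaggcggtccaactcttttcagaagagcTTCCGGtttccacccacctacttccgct
Rps24: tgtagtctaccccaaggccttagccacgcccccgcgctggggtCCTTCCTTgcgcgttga
Rps6: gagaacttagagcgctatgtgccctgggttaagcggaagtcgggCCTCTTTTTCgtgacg
Rpl12: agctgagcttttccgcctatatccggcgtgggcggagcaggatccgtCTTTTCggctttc
Rpl22l1: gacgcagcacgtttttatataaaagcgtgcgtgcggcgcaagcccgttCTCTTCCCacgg
Rps27l: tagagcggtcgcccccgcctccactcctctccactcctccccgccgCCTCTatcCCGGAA
Rps2: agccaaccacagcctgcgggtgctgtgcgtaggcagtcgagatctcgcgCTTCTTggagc
Rpsa: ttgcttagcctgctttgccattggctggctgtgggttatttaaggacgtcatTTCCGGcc

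A pyrimidine run stood near the annotated start in 6 of these 8 windows, and Rps7 and Rpsa had none. The CCGGAA core, on either strand, lay before the annotated start in Rps7 and after it in Rpsa. Rps27l had both a run and a core in the printed window. Windows of 300 bases (250 before the start and 50 after) were found for 43 of the 49 members and for 27025 genes in all, and a gene counted when any of its windows held a motif. The pyrimidine run was found in 20 of 43 members (46.5%), against 21.2% of all genes. CCGGAA on either strand was found in 27 of 43 members (62.8%), against 16.7% of all genes; matches on the 2 strands can overlap in up to 4 letters. The E-box CACGTG, which Myc and Max bind and which reads alike on both strands, was in 4 of 43 (9.3%), against 8.09%. TATAAA on either strand was in 6 of 43 (14.0%), against 15.7%. TGANTCA, the element AP-1 dimers recognise, which is also alike on both strands, was in 1 of 43 members (2.33%), the gene Rpl22, against 8.97% of all genes. These are matches of letters in short windows, and no binding was measured.

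Of the arrays as a whole, medians of all probe sets lay between 31.5 and 32.5 intensity units, and the mean log2 level of 7 CD8 T cell markers lay between 11.69 and 12.26 in every array. Batf itself had log2 intensities from 5.56 to 6.77 in the 7 Batf-/- arrays and from 8.63 to 9.36 in the 6 wild-type arrays. Its value of 6.77 was in day 3 Batf-/- replicate 1, and the next highest Batf-/- value was 6.06, in naive replicate 2. Markers of B cells, NK cells, monocytes and macrophages, neutrophils and erythroid cells were lower at day 3 than in naive arrays, while the mean of 2 CD4 T cell markers was higher at day 3 (5.84 to 6.08, against 5.52 to 5.66 in naive arrays). The mean of 6 B cell markers lay between 4.87 and 5.13 at day 3, with 1 to 3 of the 6 near background. It was 7.40, 7.51 and 8.07 in naive Batf-/- and 7.14 and 6.67 in naive wild-type arrays, with at most 1 of 6 near background. The mean of 4 NK cell markers lay between 4.88 and 5.22 at day 3, with 1 of 4 near background. It was 8.85, 7.76 and 8.01 in naive Batf-/- and 7.23 and 7.13 in naive wild-type arrays. For 5 monocyte and macrophage markers the range was 4.49 to 4.83 at day 3, with 2 or 3 of the 5 near background, against 5.91 to 7.30 in naive arrays. For 2 erythroid markers it was 3.99 to 4.38 at day 3, with 1 of the 2 near background throughout. In naive arrays it was 5.13 to 5.65 in Batf-/- and 4.43 and 4.84 in wild type. The naive Batf-/- replicate 1 stood apart, with a mean of 7 neutrophil markers at 8.71 and all 7 above background, against 4.66 and 5.62 in the other naive Batf-/- arrays, 5.10 and 5.68 in naive wild type and 4.00 to 4.12 at day 3. The naive genotypes did not overlap in the means of B cell, NK cell and erythroid markers. The part of these cells in the results on stimulation, and on genotype in naive cells, was not tested. Where a call or count of the members changed without naive Batf-/- replicate 1, both outcomes are given. The other lists were not refitted without that array.

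The ribosomal protein probe sets were among the brightest on the array. Of the 49 members, 35 had mean log2 intensities above 13, the lowest of them Rpl22l1 at 13.17, and all 35 were among the 100 brightest genes in every one of the 13 arrays. The next member was Rps27l at 12.004. This boundary was set after the values were seen. The 35 bright members had Rpl37a, of the large subunit, at the top with 14.48 and Rpl27 at 13.62 as the lowest after Rpl22l1. Another 12 members had lower values, and Rpl3l and Rps16 were near background (a mean log2 below 4.35, the lowest 40% of probe sets). Intensities of different probe sets depend on the probes, so these levels do not order the mRNAs. Replicates agreed closely at the bright end, where the median SD of a member within a group was 0.018 in day 3 Batf-/-, 0.023 in day 3 wild type, 0.023 in naive Batf-/- and 0.016 in naive wild type. Over all genes the same medians were 0.092, 0.092, 0.127 and 0.085. The normalisation also fixes the top of the scale, since the 10th brightest gene lay between 14.30 and 14.34 and the 100th between 12.86 and 12.93 in all arrays. Whether the scale is compressed there was not tested.

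With stimulation, most ribosomal protein genes moved little in either genotype. Against naive cells of the same genotype, 5 of 49 members passed as higher and 13 as lower at day 3 in Batf-/- cells, and 2 as higher and 11 as lower in wild-type cells (limma, two-sided, adjusted over all genes, passed below 0.05). Of all genes, 23.8% were higher and 23.2% lower in Batf-/- cells, and 22.4% higher and 23% lower in wild-type cells. The members' shares were 10.2% and 26.5% in Batf-/- and 4.08% and 22.4% in wild-type cells. In this fit the share of lower calls was thus near the background in both genotypes and the share of higher calls below it. By overlap of arrays the picture differed. Day 3 arrays lay wholly below naive arrays in 28 of 49 members in Batf-/- cells, beside 4219 of 18194 genes. In wild-type cells they did so in 27 members, beside 5088 genes. They lay wholly above in 7 members in each genotype, beside 4557 genes in Batf-/- and 5517 in wild-type cells. The median log2 difference of the members was -0.064 in Batf-/- and -0.072 in wild-type cells, beside 0.049 and 0.047 over all genes. The median size of a difference, without its sign, was 0.093 and 0.095 for the members and 0.217 and 0.237 for all genes. In bulk RNA these are levels relative to the rest of the RNA of each array, so a change of total RNA per cell cannot be seen, and fewer cells of a type cannot be told apart from less RNA per cell. Without naive Batf-/- replicate 1, 3 members passed as higher and 14 as lower in Batf-/- cells. The count of higher members in Batf-/- cells was also 3 without naive replicate 3 or day 3 replicate 3 or 4, and 2 without naive replicate 2 or day 3 replicate 1, and in wild-type cells it was 0 without naive replicate 1.

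The contrasts of both genotypes share no arrays but share the pooled estimate of the spread, and the calls are given side by side. Lower in both genotypes were 10 members (Rpl12, Rps4l, Rps6, Rpl37, Rpl7l1, Rps25, Rpl22l1, Rps7, Rps24 and Rps29), and higher in both were Rps27l and Rps2. Calls in both genotypes were not counted over all genes, so these numbers have no background beside them and are descriptions. In Batf-/- cells alone, Rps9, Rps3a1 and Rpl13a passed as lower and Rpl41, Rpsa and Rpl7a as higher. In wild-type cells alone, Rps27 passed as lower, and no member passed in opposite directions. None of these genes differed in its change between the genotypes by the interaction term (0 of 49 passed), so a call in 1 genotype alone does not show a difference between them.

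**Figure D1:**
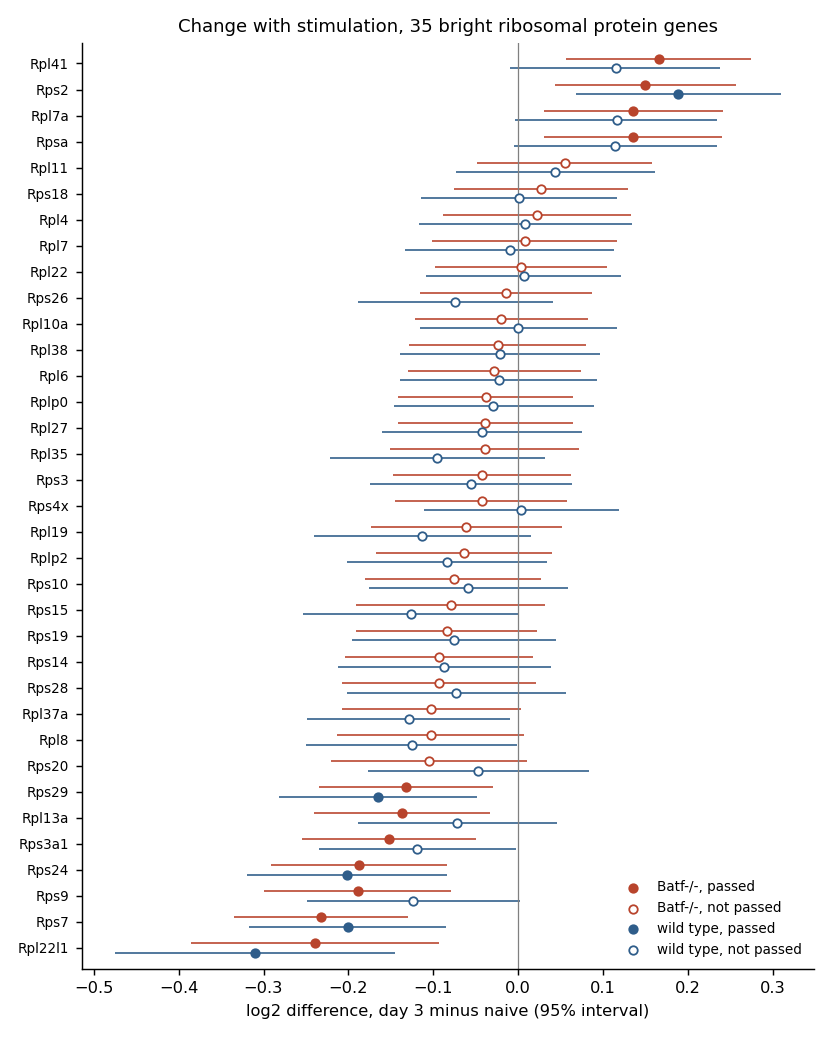
Log2 difference between day 3 and naive cells (horizontal axis) for the 35 bright ribosomal protein genes, in Batf-/- (red) and wild-type cells (blue), with 95% intervals from the limma fit and filled points where the adjusted p was below 0.05. All differences lie between -0.31 and 0.19, with Rpl22l1, Rps7, Rps9 and Rps24 lowest in Batf-/- cells and Rpl41, Rps2, Rpl7a and Rpsa highest.

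Among the bright small subunit genes, Rps7 and Rps24 showed the clearest falls. Both proteins are needed early in the assembly of the small subunit, and human mutations in either gene can cause Diamond-Blackfan anaemia, a failure of red cell production. Rps7 had log2 intensities of 13.94, 13.94, 13.94 and 13.96 in day 3 Batf-/- arrays and 13.98, 13.97, 13.98 and 13.98 in day 3 wild-type arrays, against 14.21, 14.19 and 14.14 in naive Batf-/- and 14.17 and 14.18 in naive wild-type arrays. Every day 3 array was below every naive array. The differences were -0.23 ± 0.05 in Batf-/- (SE, adjusted p = 0.00108, limma) and -0.20 ± 0.05 in wild-type cells (adjusted p = 0.00729), falls of 1.18-fold and 1.15-fold. Rps24 had 14.10, 14.15, 14.15 and 14.13 in day 3 Batf-/- arrays and 14.12, 14.10, 14.14 and 14.12 in day 3 wild type, against 14.31, 14.33 and 14.30 in naive Batf-/- and 14.30 and 14.34 in naive wild type. Again the day 3 and naive arrays did not overlap, and the differences were -0.19 ± 0.05 (adjusted p = 0.00531) and -0.20 ± 0.05 (adjusted p = 0.00759). In wild-type cells the Rps24 call was lost without naive replicate 2.

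The other probe sets of these genes bear on the size. A further bright probe set of Rps7 gave -0.30 in Batf-/- and -0.28 in wild-type cells. Of Rps24, 3 further bright probe sets gave -0.23, -0.28 and -0.44 in Batf-/- and -0.25, -0.26 and -0.36 in wild-type cells, while 2 lower ones, with means of 6.95 and 4.66, gave 0.07 and 0.10 in Batf-/- and 0.07 and -0.18 in wild-type cells. All bright probe sets of both genes were thus below 0, and the lower ones of Rps24 lay on both sides of 0.

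Another 4 bright core members passed as lower in at least 1 genotype. Rps29, a small zinc-binding protein, had 14.35, 14.34, 14.32 and 14.35 in day 3 Batf-/- and 14.32, 14.33, 14.34 and 14.31 in day 3 wild type, against 14.44, 14.49 and 14.49 in naive Batf-/- and 14.51 and 14.47 in naive wild type. Its differences of -0.13 ± 0.05 (adjusted p = 0.0356) and -0.17 ± 0.05 (adjusted p = 0.0228) passed in both genotypes. Rps9, Rps3a1 and Rpl13a fell by 0.19, 0.15 and 0.14 on the log2 scale in Batf-/- cells (adjusted p = 0.00768, 0.0175 and 0.0313). In wild-type cells they gave -0.12, -0.12 and -0.07, which did not pass. The probe sets of Rpl13a disagreed, since one with a mean of 12.04 gave 0.19 in Batf-/- (adjusted p = 0.0149 when used for the gene) and 0.26 in wild-type cells (adjusted p = 0.00484). The Rps29 and Rpl13a calls in Batf-/- cells were each lost without naive replicate 2 or 3 or day 3 replicate 2, 3 or 4 of that genotype, and the Rps3a1 call without naive replicate 2. In wild-type cells the Rps29 call was lost without either naive array.

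Rps2, which lies at the mRNA entry channel of the small subunit, and Rpsa, on its solvent side, were among the few members that rose. Rps2 had 14.30, 14.22, 14.25 and 14.24 in day 3 Batf-/- arrays and 14.27, 14.28, 14.26 and 14.26 in day 3 wild type, against 14.08, 14.09 and 14.14 in naive Batf-/- and 14.08 and 14.08 in naive wild type. The day 3 arrays were all above the naive ones, and the rises were 0.15 ± 0.05 in Batf-/- (adjusted p = 0.0234) and 0.19 ± 0.06 in wild type (adjusted p = 0.0135). The call in Batf-/- cells was lost without day 3 Batf-/- replicate 1 and without naive Batf-/- replicate 1 or 2, and the call in wild-type cells without either naive wild-type array. Rpsa, also known as the laminin receptor, had 14.40, 14.36, 14.34 and 14.36 in day 3 Batf-/- and 14.31, 14.34, 14.36 and 14.36 in day 3 wild type, against 14.26, 14.20 and 14.23 in naive Batf-/- and 14.23 and 14.22 in naive wild type. It rose by 0.14 ± 0.05 in Batf-/- cells (adjusted p = 0.0357), while its difference of 0.11 ± 0.06 in wild-type cells did not pass. The Rpsa call was lost in 6 of 13 fits that left out an array, those without naive Batf-/- replicate 2 or 3 or any 1 of the day 3 Batf-/- arrays.

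Of the large subunit, Rpl7a and Rpl41 passed as higher in Batf-/- cells. Rpl7a had 14.24, 14.16, 14.17 and 14.20 in day 3 Batf-/- and 14.15, 14.19, 14.20 and 14.19 in day 3 wild type, against 14.06, 14.07 and 14.04 in naive Batf-/- and 14.07 and 14.06 in naive wild type. The differences were 0.14 ± 0.05 (adjusted p = 0.0347) and 0.12 ± 0.06 (adjusted p = 0.108), and the call in Batf-/- cells was lost without any 1 of the naive Batf-/- arrays and without day 3 Batf-/- replicate 1, 3 or 4. Rpl41, a very short basic protein, rose by 0.17 ± 0.05 in Batf-/- cells (adjusted p = 0.0153) and gave 0.12 ± 0.06 in wild-type cells (adjusted p = 0.123). Its 4 probe sets disagreed, since a further bright one gave 0.02 and -0.05, and those with means of 8.07 and 7.75 gave -1.53 and -1.97 in Batf-/- and -1.38 and -1.67 in wild-type cells.

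In a fit of the compared groups alone, the calls of Rps2, Rpsa, Rpl7a, Rps29, Rpl13a and Rps3a1 in Batf-/- cells were lost.

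On the brightest probe set of each gene and in the main fit, no measured gene of the P stalk, 5S particle and tunnel exit lists passed. Rplp0 and Rplp2, the measured proteins of the P stalk, which recruits elongation factors, gave -0.04 and -0.06 in Batf-/- and -0.03 and -0.08 in wild-type cells, and neither passed. Rpl11, which forms the 5S particle with Rpl5 and binds Mdm2 when ribosome assembly fails, gave 0.06 ± 0.05 in Batf-/- and 0.04 ± 0.05 in wild-type cells, with 95% intervals from -0.05 to 0.16 and from -0.07 to 0.16. At the exit of the peptide tunnel, Rpl19, Rpl35 and Rpl39 gave -0.06, -0.04 and -0.13 in Batf-/- and -0.11, -0.10 and -0.01 in wild-type cells, with none passing. The other bright probe sets of Rpl35 gave -0.061 to -0.171 in Batf-/- and -0.139 to -0.195 in wild-type cells. Rpl35 passed as lower in both genotypes with 3 other choices of probe set. Among all alternatives, Rpl39 passed as lower in 4 in Batf-/- cells, and Rpl19 in 2 and Rplp2 in 1 in wild-type cells. By subunit, 2 of 22 large subunit genes passed as higher and 3 as lower in Batf-/- cells, and 0 and 2 in wild-type cells. Of 21 small subunit genes, 2 passed as higher and 7 as lower in Batf-/- cells, and 1 and 6 in wild-type cells. Of 9 measured genes of the list of human Diamond-Blackfan anaemia genes, 0 passed as higher and 3 as lower in Batf-/- cells, and 0 and 4 in wild-type cells. The shares of lower calls were 13.6% and 9.09% in the large subunit, 33.3% and 28.6% in the small subunit and 33.3% and 44.4% of the anaemia genes, in Batf-/- and wild-type cells, beside 23.2% and 23% of all genes, and with so few genes these are descriptions.

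On the brightest probe set of each gene, Rps27l, Rpl22l1, Rpl7l1 and Rps4l had larger log2 differences than their parent genes. Paralogs of this kind are related copies of a ribosomal protein gene, some with restricted or inducible use, and 1 of the 5 measured passed as higher and 3 as lower in each genotype. Rps27l, which p53 induces in human cells, had log2 intensities of 12.12, 12.24, 12.27 and 12.25 in day 3 Batf-/- and 12.19, 12.15, 12.22 and 12.25 in day 3 wild-type arrays, against 12.01, 11.48 and 11.55 in naive Batf-/- and 11.55 and 11.78 in naive wild-type arrays. All day 3 arrays were above all naive arrays, and the naive Batf-/- array closest to them is replicate 1, the one with neutrophil markers. It rose by 0.54 ± 0.11 in Batf-/- (1.45-fold, adjusted p = 0.00109) and 0.53 ± 0.12 in wild-type cells (1.44-fold, adjusted p = 0.00309). Without naive Batf-/- replicate 1 the rise in Batf-/- cells was 0.70, and without naive wild-type replicate 1 the value in wild-type cells was 0.42 and did not pass (adjusted p = 0.0555). Its other 2 probe sets gave 0.56 and 0.69 in Batf-/- and 0.52 and 0.72 in wild-type cells. The parent Rps27 was measured here by a probe set with a mean of 7.99, which gave -0.07 ± 0.07 in Batf-/- cells, or -0.16 without naive Batf-/- replicate 1, which passed (adjusted p = 0.0304). In wild-type cells it gave -0.21 ± 0.08 (adjusted p = 0.0419), a call that was lost in 9 of 13 fits that left out an array, those without any 1 of the wild-type arrays or without day 3 Batf-/- replicate 2, 3 or 4.

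Rpl22l1 is the paralog of Rpl22, which in mouse represses it and is needed for the development of alpha beta T cells. Rpl22l1 had 12.93, 13.06, 13.13 and 13.10 in day 3 Batf-/- and 13.12, 13.04, 13.06 and 13.05 in day 3 wild type, against 13.40, 13.30 and 13.18 in naive Batf-/- and 13.37 and 13.40 in naive wild type. It fell by 0.24 ± 0.07 in Batf-/- (adjusted p = 0.00988) and by 0.31 ± 0.08 in wild-type cells (adjusted p = 0.00434). With weights for array quality the call in Batf-/- cells was lost (adjusted p = 0.054). On its brightest probe set Rpl22 itself stayed between 13.92 and 13.96 in all 13 arrays, with differences of 0.004 ± 0.047 in Batf-/- and 0.007 ± 0.053 in wild-type cells. Its probe set with a mean of 13.25 gave 0.001 and 0.03, but one with a mean of 9.18 gave 0.18 in Batf-/- and 0.57 in wild-type cells, where it passed when used for the gene (adjusted p = 8.95e-05). Rpl7l1, found in precursors of the large subunit in human cells, had 8.72, 8.71, 8.72 and 8.58 in day 3 Batf-/- and 8.49, 8.51, 8.57 and 8.57 in day 3 wild type, against 9.36, 9.07 and 9.14 in naive Batf-/- and 9.16 and 9.14 in naive wild type. It fell by 0.50 ± 0.07 (adjusted p = 4.58e-05) and 0.62 ± 0.08 (adjusted p = 2.37e-05), its other probe sets gave -1.22 and -0.87 in Batf-/- and -1.53 and -0.95 in wild-type cells, and its parent Rpl7 gave 0.01 and -0.01.

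Rps4l is the autosomal relative of the X-linked Rps4x. Rps4l had 5.19, 4.88, 4.91 and 5.06 in day 3 Batf-/- and 4.90, 4.74, 4.72 and 4.83 in day 3 wild type, not far above background, against 7.44, 6.23 and 7.32 in naive Batf-/- and 6.62 and 6.89 in naive wild type. It fell by 1.98 ± 0.22 in Batf-/- (3.96-fold, adjusted p = 5.66e-06) and 1.96 ± 0.25 in wild-type cells (3.88-fold, adjusted p = 2.17e-05). Rps4x lay between 14.20 and 14.26 in all arrays and gave -0.04 and 0.00. Rpl3l, the form of Rpl3 used in striated muscle, was near background in all groups, between 3.39 and 3.79. The differences between paralog and parent were not themselves tested.

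**Figure D2:**
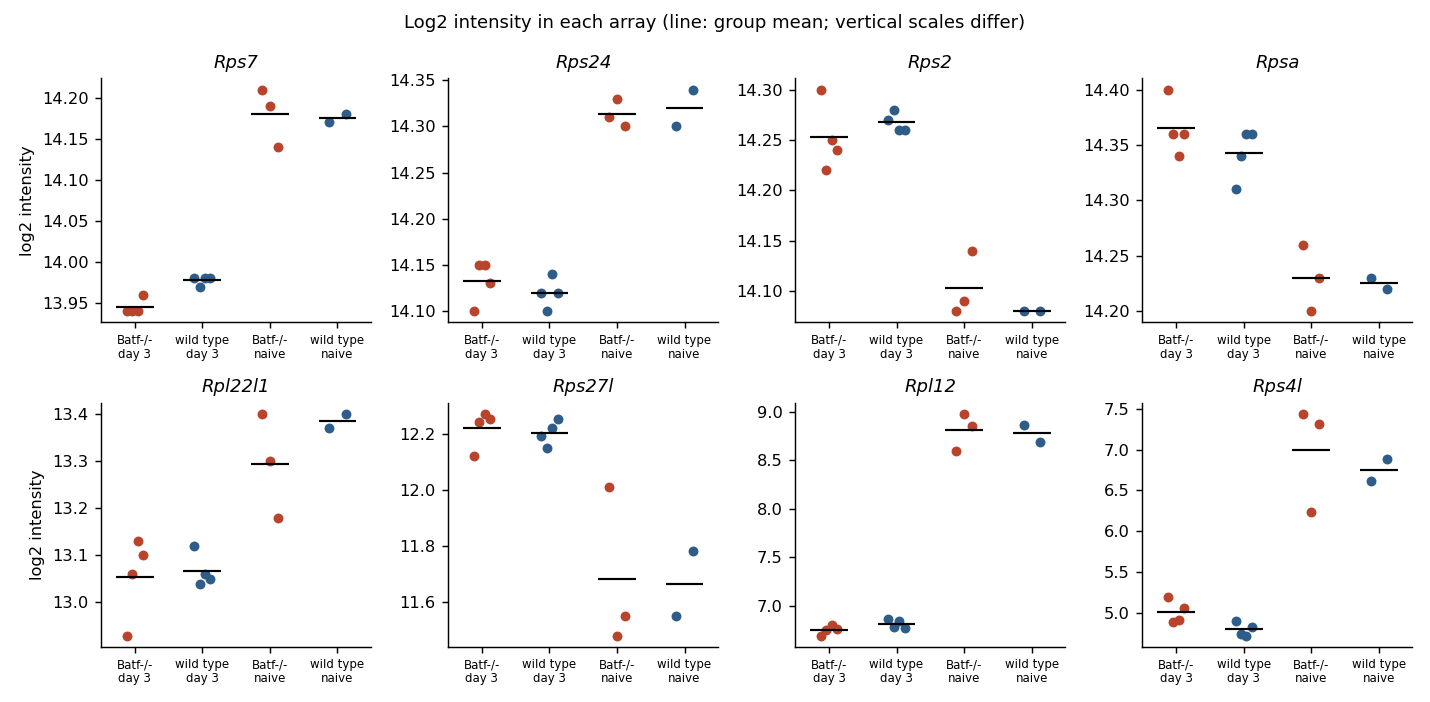
Log2 intensity (vertical axis, scales differ between panels) of 8 members in each array, by group, with day 3 groups left of naive groups and Batf-/- (red) left of wild type (blue), and lines at group means. In all 8 panels the day 3 arrays lie apart from the naive arrays on one side, while the genotypes overlap or lie close together.

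A set of core genes was represented here only by lower probe sets, and their values are those of the probe set. Of the 9 core members below the bright group, Rpl12, Rps6, Rpl37 and Rps25 passed as lower in both genotypes. Rpl12, part of the base of the P stalk, had 6.69, 6.75, 6.80 and 6.76 in day 3 Batf-/- and 6.86, 6.78, 6.84 and 6.77 in day 3 wild type, against 8.60, 8.98 and 8.85 in naive Batf-/- and 8.87 and 8.69 in naive wild type. The differences were -2.06 ± 0.08 in Batf-/- (4.16-fold lower, adjusted p = 5.49e-10) and -1.97 ± 0.09 in wild-type cells (3.91-fold lower, adjusted p = 3.34e-09). Rps6, the substrate of the S6 kinases, had 9.98, 9.83, 9.81 and 9.89 in day 3 Batf-/- and 9.79, 9.84, 9.86 and 9.82 in day 3 wild type, against 10.55, 10.49 and 10.44 in naive Batf-/- and 10.22 and 10.31 in naive wild type. It fell by 0.61 ± 0.06 (adjusted p = 1.72e-06) and 0.44 ± 0.07 (adjusted p = 0.000107). Rpl37 fell by 0.56 and 0.41 and Rps25 by 0.48 and 0.71 in Batf-/- and wild-type cells. Rpl14, Rpl27a, Rpl39 and Rps16 passed in neither genotype.

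All 9 of these symbols also stand on bright probe sets that carry several symbols, 19 in number. Those 19 gave a median of -0.06 in Batf-/- (from -0.37 to 0.03) and -0.07 in wild-type cells (from -0.48 to 0.01), far from the value of the Rpl12 probe set used here. Within some single genes the lower probe sets differed from the bright ones, in either direction. Rps9 fell by 0.19 in Batf-/- cells on its bright probe set, while a probe set with a mean of 6.46 gave -1.90 in Batf-/- and -2.17 in wild-type cells. Rps10 gave values from -0.15 to 0.02 on 5 probe sets with means of 12.82 or more, and -0.76 and -0.85 on another with a mean of 5.95. In Rps3 a probe set with a mean of 9.13 gave 0.32 in Batf-/- and 0.51 in wild-type cells, while its bright one gave -0.04 and -0.06. Of 25 further probe sets of bright members that were not bright themselves, 15 were below 0 in Batf-/- and 16 in wild-type cells. Another 25 further probe sets of bright members were bright, and 22 of them were below 0 in each genotype. Their medians were -0.128 in Batf-/- and -0.139 in wild-type cells. The 35 bright probe sets used for the genes had medians of -0.043 and -0.059, so the further bright ones fell more. Over all 110 probe sets with several symbols the medians were -0.08 in Batf-/- and -0.07 in wild-type cells. Which transcripts the dim probe sets detect was not tested. Rps19bp1 lay between 8.13 and 8.51 in all arrays and gave -0.01 ± 0.08 and -0.14 ± 0.09, neither of which passed.

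**Figure D3:**
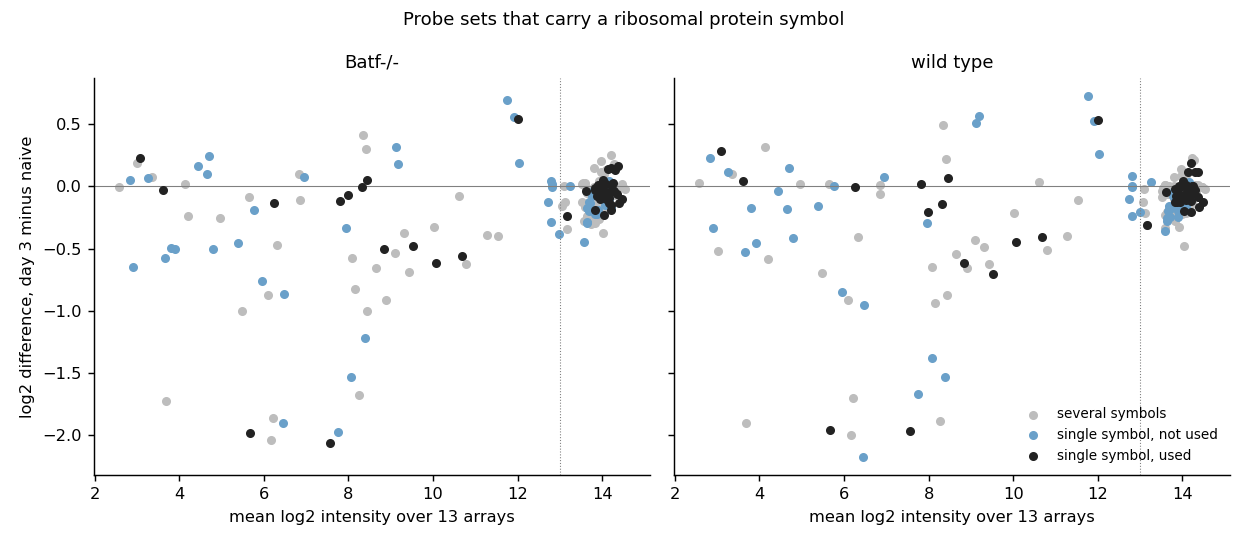
Mean log2 intensity over the 13 arrays (horizontal axis) against the log2 difference between day 3 and naive cells (vertical axis) for all probe sets with a ribosomal protein symbol, in Batf-/- (left) and wild-type cells (right), with the dotted line at a mean of 13. Bright probe sets lie close to 0, and differences near -2 occur only below a mean of 9, among single-symbol and several-symbol probe sets alike.

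Between the genotypes no ribosomal protein gene passed the test, in stimulated or in naive cells. At day 3, 0 of 49 members passed between Batf-/- and wild-type cells by limma, and 1.37% of all genes passed. An unadjusted p below 0.05 was found in 2 members (Rps25 and Rpl7l1), beside 2289 of 18194 genes. In naive cells 0 of 49 passed, and 1.08% of all genes passed, and 1 member (Rps6) had an unadjusted p below 0.05, beside 2470 of 18194 genes. For the 35 bright members the 95% intervals of the difference lay within -0.15 to 0.14 at day 3 and within -0.26 to 0.19 in naive cells, so larger differences on the measured scale were outside every interval. The estimates themselves ran from -0.05 to 0.04 at day 3 and from -0.09 to 0.05 in naive cells. The median difference over the 49 members was 0.01 at day 3 and 0.005 in naive cells, beside 0.014 and 0 over all genes.

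Some groups did not overlap although the test did not pass. At day 3 the Batf-/- arrays lay wholly above the wild-type arrays in 1 member and wholly below in 3, which is 4 of 49 beside 12.8% of all genes. In naive cells, 6 members were wholly above and 5 wholly below, beside 24.5% of all genes, a share near that of the members. The 3 members wholly below at day 3 were Rps7 (13.94 to 13.96 in Batf-/-, against 13.97 to 13.98 in wild type), Rps3a1 (14.12 to 14.15, against 14.16 to 14.18) and Rpl13a (14.09 to 14.13, against 14.13 to 14.19), with fitted differences of -0.03 to -0.04. The member wholly above was Rpl7l1 (8.58 to 8.72 in Batf-/-, against 8.49 to 8.57 in wild type), with 0.15 ± 0.07 and an adjusted p of 0.357 (limma).

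The members with the largest genotype estimates were dim or low. Rps25, whose probe set had a mean of 9.52, had 9.26, 9.38, 9.45 and 9.55 in day 3 Batf-/- arrays, against 9.25, 9.18, 9.29 and 8.94 in day 3 wild type, and the groups overlapped. Its difference was 0.25 ± 0.08 (adjusted p = 0.201). Rps6 in naive cells gave 0.22 ± 0.07 (adjusted p = 0.188), and Rps4l gave 0.24 ± 0.26 (adjusted p = 0.742). The Rps4l value in naive cells depended on single naive Batf-/- arrays. Replicate 2 was at 6.23 against 7.44 and 7.32 in the other 2, and without it the value was 0.62 and passed (adjusted p = 0.0187). Without replicate 1, the array with neutrophil markers, the value was instead 0.02 and did not pass. Among the paralogs at day 3, Rps27l gave 0.02 ± 0.10, Rpl22l1 gave -0.02 ± 0.06, Rps4l 0.21 ± 0.20 and Rpl3l -0.06.

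**Figure D4:**
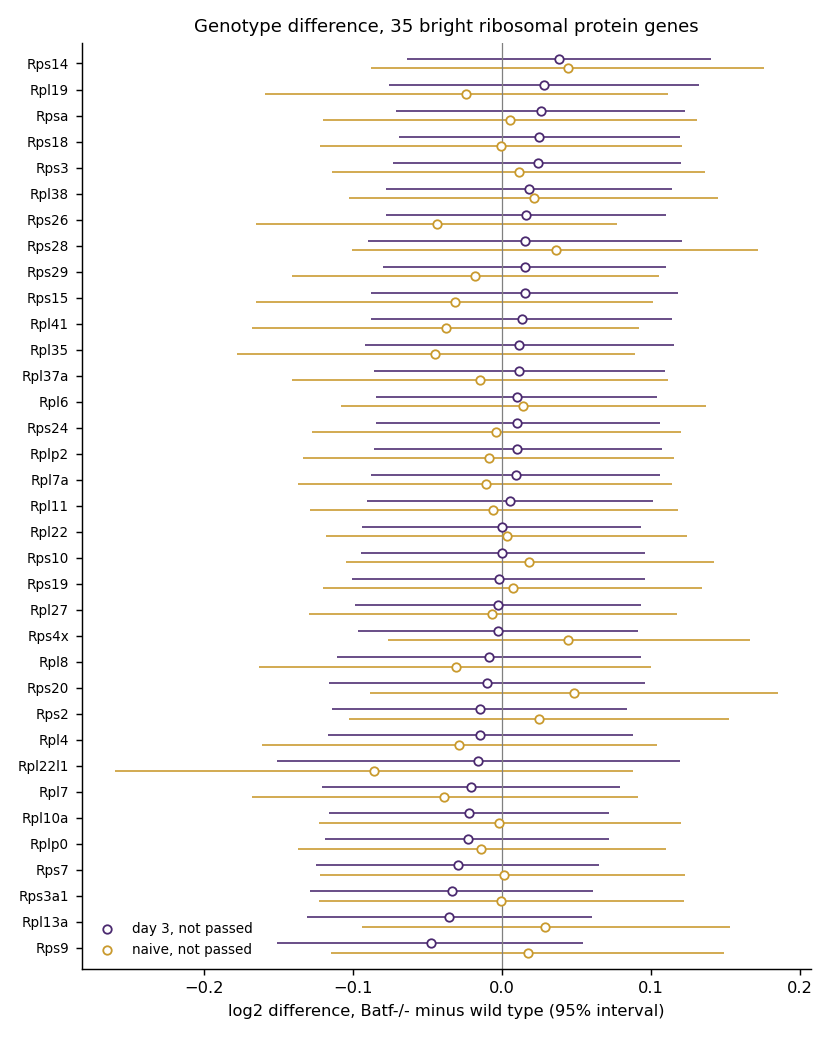
Log2 difference between Batf-/- and wild-type cells (horizontal axis) for the 35 bright members at day 3 (purple) and in naive cells (ochre), with 95% intervals from the limma fit. No point passed, and the day 3 estimates lie between -0.05 and 0.04.

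The interaction term compared the change with stimulation between the genotypes. None of the 49 members passed by limma, beside 0.649% of all genes, and 0 of 49 had an unadjusted p below 0.05, beside 2161 of 18194 genes. The intervals of the 35 bright members lay within -0.23 to 0.29, and the median over the 49 was -0.003. The lowest p belonged to Rps6, at -0.17 ± 0.09 (adjusted p = 0.492).

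As a share of the summed intensity of all 18194 genes, the members made up less at day 3 than in naive cells. In Batf-/- cells the share was 7.665% ± 0.0515 at day 3 (SD, n = 4), against 8.14% ± 0.08 in naive cells (n = 3). In wild-type cells it was 7.663% ± 0.0267 at day 3 (n = 4), against 8.04% ± 0.00566 in naive cells (n = 2). No day 3 array (7.609% to 7.714%) reached the lowest naive array (8.036%), and the genotypes overlapped at day 3. In naive cells they did not, with 8.048%, 8.176% and 8.195% in Batf-/-, against 8.036% and 8.044% in wild type. No test was made of this share, which rests on linear intensities of probe sets and not on molecules. The part of other cells in the naive values was not tested.

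The other lists of the translation machinery are read against all genes, of which 23.8% were higher and 23.2% lower in Batf-/-, and 22.4% and 23% in wild-type cells. Of 27 ribosome biogenesis factors, 1 passed as higher and 20 as lower at day 3 in Batf-/- cells, and 1 and 25 in wild-type cells, with medians of -0.64 and -0.71. Rrs1, which in yeast helps to place the 5S particle in the large subunit, fell by 1.41 ± 0.10 in Batf-/- (adjusted p = 1.21e-07) and 1.76 ± 0.12 in wild-type cells (adjusted p = 5.93e-08), and Tsr1, which acts in late small subunit assembly, had differences of -1.41 and -1.74. Nucleolin (Ncl) was the 1 factor that rose, by 0.19 ± 0.06 and 0.40 ± 0.07. Of 11 genes of RNA polymerase I and its factors, which make the ribosomal RNA precursor, 2 passed as higher and 7 as lower in Batf-/-, and 2 and 6 in wild-type cells. The activator Ubtf fell by 1.23 and 1.41, with differences of -0.997 and -1.377 for the subunit Polr1b, whereas Polr1d, a subunit shared with RNA polymerase III, rose by 0.72 and 0.92 and Taf1b by 0.43 and 0.33.

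Of 76 mitochondrial ribosomal protein genes, 36 passed as higher and 15 as lower in Batf-/- cells, and 28 and 18 in wild-type cells, with medians of 0.15 and 0.07. Of 14 elongation factors and other transcripts with a TOP motif, 3 passed as higher and 5 as lower in Batf-/-, and 5 and 2 in wild-type cells, led by Btf3 at 0.27 and 0.33 and, in Batf-/- cells, by Eif4b at -0.43. Of 22 initiation factors, 7 were higher and 7 lower in Batf-/-, and 7 and 6 in wild-type cells, among them Eif2s2, a subunit of the factor that brings the initiator tRNA, with rises of 0.61 and 0.60 and Eif5 with falls of 0.75 and 0.84. Of 7 p53 response genes, 5 were higher and 0 lower in each genotype. The cell cycle inhibitor Cdkn1a rose by 4.22 ± 0.13 in Batf-/- and 4.61 ± 0.14 in wild-type cells, and Phlda3 by 1.65 and 1.62. Mdm2 and Mdm4 passed in neither genotype. Mdm2 had means of 9.17 at day 3 and 9.12 in naive Batf-/- cells, and 9.26 and 9.24 in wild-type cells. Mdm4 had means of 9.65 and 9.75 in Batf-/- cells, and 9.84 and 9.96 in wild-type cells. Whether p53 had a part in the rise of Rps27l was not tested. As shares, the mitochondrial list had 47.4% higher and 19.7% lower in Batf-/- cells and 36.8% and 23.7% in wild-type cells, the initiation factors 31.8% and 31.8%, and 31.8% and 27.3%, beside the 23.8% and 23.2%, and 22.4% and 23%, of all genes. Of 12 growth signalling genes, 3 were higher and 3 lower in Batf-/-, and 2 and 5 in wild-type cells, with 25% of the list in each direction in Batf-/- cells. Eif4ebp1, which holds back initiation until mTOR inactivates it, rose by 1.84 and 1.85 and Mycn by 1.33 and 0.70. Tsc1, an inhibitor of mTOR, had differences of -0.46 and -0.68. In naive Batf-/- replicate 1, the array with neutrophil markers, Eif4ebp1 was at 9.35, against 7.87 and 8.19 in the other naive Batf-/- arrays.

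**Figure D5:**
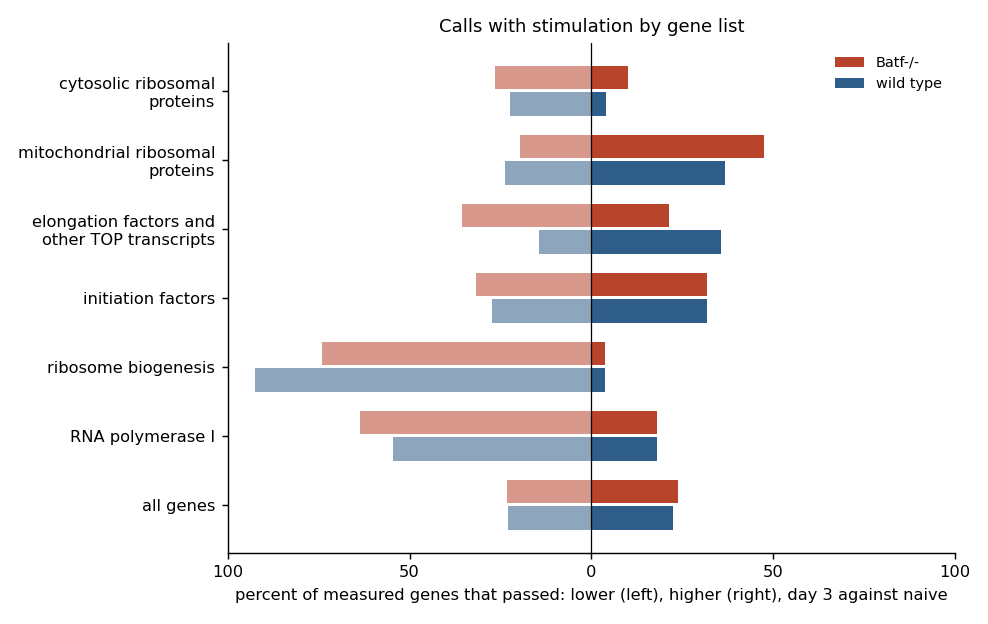
Percent of the measured genes of each list that passed as higher (right of 0) or lower (left of 0, paler) at day 3 against naive cells, in Batf-/- (red) and wild-type cells (blue). In the main fit, ribosome biogenesis reaches 74.1% and 92.6% lower. Cytosolic ribosomal proteins have 26.5% and 22.4% lower in that fit, near the 23.2% and 23% of all genes.

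Between the genotypes, a few genes of these lists passed where the ribosomal protein genes did not. At day 3, 3 of 27 biogenesis factors were higher in Batf-/- cells, beside 0.665% of all genes. They were Nop56 (0.32 ± 0.07, adjusted p = 0.0333, limma), Utp20 (0.32 ± 0.07, adjusted p = 0.0382) and the nucleolar methyltransferase Fbl (0.26 ± 0.06, adjusted p = 0.0399). Calls in these lists were not examined under the alternatives or with arrays left out. The median of the 27 was 0.18, beside 0.01 over all genes. Larp1, which binds TOP mRNAs, had 10.39, 10.41, 10.37 and 10.41 in day 3 Batf-/- arrays, against 10.17, 10.15, 10.09 and 10.14 in day 3 wild type. It was higher by 0.26 ± 0.05 (adjusted p = 0.0168), the only one of 12 growth signalling genes to pass at day 3. Myc, which drives many ribosome genes, had 9.53, 9.76, 9.79 and 9.79 in day 3 Batf-/- and 9.54, 9.43, 9.44 and 9.46 in day 3 wild type, against 9.97, 9.88 and 9.80 in naive Batf-/- and 10.36 and 10.31 in naive wild type. Myc was lower in naive Batf-/- than in naive wild-type cells (-0.45 ± 0.09, adjusted p = 0.0304, limma). It fell by 0.87 ± 0.08 with stimulation in wild-type cells, and its change differed between the genotypes by 0.70 ± 0.11 (adjusted p = 0.0123, limma). The naive genotypes also differed in markers of other cells, and the part of those cells in these Myc values was not tested.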

How the data were processed

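Biotin-labelled RNA was hybridised to 13 one-colour arrays. The submitters' processing notes name RMA, with no version, as the source of the deposited intensity values. They are linear (up to 27465), and were converted to log2 here without a second normalisation. The platform table names 1 gene for 34958 of 45101 probe sets and several for 932, and the probe set with the highest mean stood for each of 18194 genes. All 49 members were found in the RefSeq gene table.

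A model of 4 group means was fitted to every gene with limma 3.58.1 in R 4.3.3 (9 residual and 3.702 prior degrees of freedom), for 5 contrasts, two-sided, with Benjamini-Hochberg adjustment over all genes of a contrast. The fit was tested on simulated data. The number of arrays limits the precision, and p-values measure the spread between arrays, which may be technical. The fit also draws the spread of each gene towards that of all genes. Bright members vary less than most genes, so their SEs and intervals are wider than their own spread. Rps24 had SDs of 0.016 to 0.024 within groups and SEs of 0.048 and 0.054. With a spread that follows intensity, lower members numbered 20 in Batf-/- and 18 in wild-type cells. Calls over all genes were not counted in that fit, so these counts have no background beside them. Replicate numbers are shared between groups, but same-numbered arrays did not deviate together.

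Named members were, for each contrast, the 10 largest rises and falls among those that passed, with the P stalk, 5S particle, paralogs and their parents, and Rps19bp1. Of the other lists, the 2 largest rises and falls that passed were named, and genes given in more detail were chosen after their values were seen. The members and lists were chosen with earlier results of these data known. Alternatives were other normalisation, probe set choice, dim filter, spread model, a block, the compared groups alone and leaving out each array. They were read for the members only.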

Additional observations from a re-analysis of the deposited data

Results flagged for a closer look

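In groups of 4 arrays, 9 of 100 tested groups had 1 array whose gap to the others exceeded Dixon's 95% critical ratio for 4 values, and chance flags about 1 group in 20. Naive groups were too small to test. In day 3 Batf-/- replicate 4, Rpl19 was at 14.09 (14.05 in the others), Rpl27a at 7.63 (7.83 to 7.84), Rpl7l1 at 8.58 (8.71 to 8.72) and Rps7 at 13.96 (13.94). In the other day 3 Batf-/- arrays, Rpl6 was at 13.85 in replicate 1 (13.81 in the others) and Rps26 at 13.82 in replicate 3 (13.84). In day 3 wild-type arrays, Rpl11 was at 14.05 in replicate 4 (14.01 to 14.02 in the others), Rpl3l at 3.67 in replicate 2 (3.64) and Rps19 at 13.92 in replicate 1 (13.95). All values are log2 intensities.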

How the results depend on the processing

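No member passed between the genotypes at day 3 or in the interaction under any alternative run, and in naive cells the count of higher members was 0 to 1 over fits that left out an array and 0 otherwise. With a single array left out, the count in Batf-/- cells ranged from 2 to 5 higher and from 11 to 14 lower, and in wild-type cells from 0 to 2 higher and from 8 to 11 lower; without 1 naive wild-type array the other is assumed to vary like the other groups. The medians of the 49 ranged from -0.072 to -0.055 in Batf-/- and from -0.081 to -0.053 in wild-type cells, and between the genotypes from 0.002 to 0.01 at day 3, from -0.003 to 0.012 in naive cells and from -0.006 to 0.017 in the interaction. In Batf-/- cells, higher members numbered 3 with the mean of all probe sets, 3 without _x_at and _s_at probe sets (44 members) and 2 in the compared groups alone, and lower members numbered 21 with the mean of probe sets and 20 with an intensity trend. In wild-type cells, higher members numbered 1 with arrays centred on the median, 4 with quantile normalisation, 4 with the mean of probe sets, 1 without _x_at and _s_at probe sets, 4 with the dimmest probe set above background (47 members) and 5 with the trend, and lower members numbered 17, 17 and 18 with centring, the mean of probe sets and the trend. The replicate number as a block gave 1 higher member in each genotype (correlations of same-numbered arrays from -0.258 to 0.039); it left 10 lower in Batf-/- and 9 in wild-type cells. The median in Batf-/- cells was -0.03 with quantile normalisation, -0.082 with the mean and -0.084 with the dimmest probe set; in wild-type cells it was -0.011, -0.102 and -0.099, and -0.136 with centring, which also gave -0.065 between naive groups and 0.055 in the interaction. The members' share of the summed intensity over all arrays was 7.832%, and 7.893% without dim probe sets, 9.153% with the mean, 6.581% without _x_at and _s_at and 9.81% with the dimmest probe set, choices that change the probe sets summed. Signs turned with other probe sets: Rpl13a to 0.191 in Batf-/- and 0.261 in wild type (dimmest), Rpl41 to -0.829 and -0.747 (mean) and to -1.97 and -1.669 (dimmest, and without _x_at and _s_at), Rps18 to -0.217 in Batf-/- (mean), Rps24 to 0.073 and 0.072 (without _x_at and _s_at) and 0.101 in Batf-/- (dimmest), and Rps4x to 0.246 in Batf-/- (dimmest). Apart from these probe set effects the causes were not tested. Calls over all genes were not counted under the alternatives, so the counts of members there have no background beside them. Closeness to background limits Rpl3l and Rps16.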
